A study of Mus musculus with 36 samples.

Results

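Messenger RNAs of 3 protein families that build and move the mitotic spindle and the cilium were followed through purified P-bodies and polysomes of mouse cells. Kinesins (Kif genes) are motors that walk along microtubules or take them apart; centrosomal proteins (Cep genes) build the centriole, the material around it and the base of the cilium; centromere proteins (Cenp genes) mark the centromere and carry the kinetochore, to which microtubules attach. Members were all genes whose symbol begins with Kif or Cep and a digit, or with Cenp and a letter. This gave 98 of the 25239 genes in the table of P-body and cytoplasm libraries, of which 40 were Kif, 37 Cep and 21 Cenp genes. The table of polysome and total RNA libraries held 98 members of 25229 genes, and the Ago2 KO table held 98 of 48321 gene symbols. In any of them 102 symbols matched, and 94 did so in all 3. A few matching symbols are not protein genes (the noncoding transcripts Cep83os and Kif16bos and the pseudogene Kif4-ps, for example), and Cenpj, named as a centromere protein, is known as a centriole assembly factor.

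RNA was sequenced in 36 libraries of 16 groups. P-bodies are cytoplasmic granules of untranslated mRNA and protein, sorted here as fluorescent particles from cells that all carried a lentiviral GFP-LSM14A transgene driven by the EF1a promoter, and each P-body group had a cytoplasm group. Cytoplasm here is the resuspended pellet of lysate cleared of nuclei, taken before sorting, so it still held P-bodies. Fold changes compare sorted P-bodies with that fraction, not with whole cytoplasm or with cytoplasm free of P-bodies. Naive ES cells were v6.5 cells (C57BL/6 × 129S4Sv/Jae F1) kept with LIF and inhibitors of MEK and GSK3, and primed ES cells were derived from them with activin A and bFGF. MEFs were embryonic fibroblasts bearing a doxycycline-inducible OKSM reprogramming cassette at Col1a1, M2-rtTA at Rosa26 and a Pou5f1-EGFP reporter, and MEFs at day 3 of induction received a control or a Nudt21 shRNA. Ago2 KO ES cells came from single-cell sorting after paired CRISPR deletion, in the naive background. Polysome-bound RNA and total RNA of the same lysates came from ES cells with homozygous Ddx6-FKBP12(F36V)-HA-P2A-mCherry alleles, isolated as single-cell clones in the GFP-LSM14A background, with (DDX6 degron) or without (control) dTAG-13, which brings about degradation of the tagged DDX6 protein, an RNA helicase needed for P-bodies. P-body, cytoplasm and Ago2 KO groups had 2 libraries each and polysome groups had 3. All are cultures of cell lines or fibroblasts, and the labels do not say whether replicates were separate cultures, so the tests measure the spread between these libraries only. Because bulk RNA was measured, fewer dividing cells and less of an mRNA in each cell cannot be told apart, which matters for mitotic genes when levels are compared between cell types; enrichment compares fractions within 1 cell type.

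Libraries held about 6769730 to 31185800 reads in the P-body and cytoplasm table, 13308800 to 29362200 in the polysome table and 15624300 to 17486200 in the Ago2 KO table. Summed levels of 9 naive pluripotency markers (2521 to 3430 CPM, counts scaled to a common library size, in naive, 488 to 526 in primed and 95.2 to 146 in MEF libraries) and of 8 fibroblast markers (13033 to 39841 CPM in MEF and 27.0 to 95.3 in naive and primed ES libraries) went with the labelled cell types. A sum of primed ES markers separated naive and primed cells less well. In P-bodies it was 560 and 553 CPM in primed and 419 and 421 CPM in naive cells. In cytoplasm it was 816 and 925 CPM in primed and 655 and 906 CPM in naive cells, which overlap. Nudt21 stood at 5.01 to 5.96 CPM in the knockdown libraries against 89.1 to 115 in the day 3 controls. Ago2 stood at 2.58 to 4.47 CPM in the Ago2 KO libraries. MEF P-body libraries stood apart from their cytoplasm in nuclear-retained RNAs (5626 and 7457 against 1243 and 1399 CPM summed over 8 genes) and in ribosomal RNA genes (24018 and 25693 against 4290 and 4948 CPM). One of them, replicate 2, also held 88.2 CPM summed over 7 lung epithelial markers, mostly Scgb1a1 and Sftpc, which were at 0 in both MEF cytoplasm libraries. The fractions of ES cells also stood apart: nuclear-retained RNAs were at 616 and 588 CPM in naive P-bodies against 257 and 340 CPM in naive cytoplasm, and at 747 and 686 against 1172 and 945 CPM in primed cells. Ribosomal RNA genes were at 1609 and 1643 against 3280 and 2891 CPM in naive and at 3453 and 3510 against 8764 and 7288 CPM in primed cells. The lung epithelial sum was 746 and 719 CPM in naive P-bodies and 2128 and 1113 CPM in naive cytoplasm; most of it was Cdh1, which ES cells express, and Scgb1a1, Sftpc and Sftpa1 were at 0 in all naive and primed libraries. In Ago2 KO cells ribosomal RNA genes took 164522 and 266030 CPM in cytoplasm and 52432 and 97274 CPM in P-bodies. The part of these differences in the results was not tested.

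As a share of all reads, the members filled 0.977% ± 0.0168 (SD, n = 2) of naive P-body libraries and 0.520% ± 0.0253 (n = 2) of naive cytoplasm. Kif20b, the member with the highest level in naive P-bodies, alone averaged 2050 CPM there and 108 CPM in naive cytoplasm. In primed cells the shares were 0.862% ± 0.00556 and 0.712% ± 0.000728, and in MEFs the order turned, with 0.296% ± 0.0361 in P-bodies and 0.339% ± 0.00314 in cytoplasm (n = 2 each). Members likewise filled a smaller share of control polysomes, 0.363% ± 0.00182, than of control total RNA, 0.443% ± 0.0227 (n = 3 each). In naive and primed cells the fractions did not overlap, P-bodies being higher; in MEFs both P-body libraries lay below both cytoplasm libraries.

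The members differ widely in base composition, and this composition went with their place in naive cells, as described further down. To show what it looks like, a stretch of 30 coding bases is given for each of the 4 members most enriched in naive P-bodies and the 4 most depleted, with G and C in capitals. Each is the codon-aligned stretch nearest the middle of the coding sequence whose GC content was within 2 percentage points of the whole coding sequence (GENCODE M21, mm10/GRCm38, longest coding transcript, 5′ to 3′).
Kif20b: ttCtttGaaGaaaaGaaCtCatCCCtGaGG
Cep112: GaattGCaGGaGttaaaGaCaaGGCGCaaC
Kif18a: GGaatCaGGCaaGaGtatCtGaaGttaGaa
Cep57: GCaGaGttaCaGaGtGGtCtaGaaGCaaat
Cep170b: CCtGGGGaGCtaGtCCCCaCCtCtttCttC
Cenpb: GCaGaatCtCGtCGGGtCCttCtGCtGGCC
Cep250: tCtGCatGtGaGaGtaGGCCtGaGCtGaGG
Kif13b: aCCaGCaaGCaGCCaCaGtGtatGGttGtG
The whole coding sequences of the enriched genes held 39.8% (Kif20b), 45.8% (Cep112), 39.4% (Kif18a) and 43.5% (Cep57) G and C. Those of the depleted genes held 61.1% (Cep170b), 61.6% (Cenpb), 57.4% (Cep250) and 52.8% (Kif13b), so that these 2 sets of 4 did not overlap.

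The first question was which of these mRNAs are enriched in P-bodies of naive ES cells. Of 92 members tested, 49 were enriched and 8 depleted in P-bodies (edgeR's quasi-likelihood test, Benjamini-Hochberg adjusted p under 0.05), and the median log2 fold change of P-body over cytoplasm was 0.59. Over all 15630 genes tested, 38% were called, 22.6% as enriched, and the median was −0.06. Each family leaned the same way: 15 of 35 kinesins were enriched and 2 depleted, 22 of 36 Cep genes were enriched and 2 depleted, and 12 of 21 Cenp genes were enriched and 4 depleted. The 6 members not tested had too few reads (Cep295nl, Kif12, Kif16bos, Kif26b, Kif2b and Kif4-ps). Without P-body replicate 1 the calls fell from 57 to 31 (29 enriched, 2 depleted), and without P-body replicate 2 to 32 (30 enriched, 2 depleted), and each of these calls was also made with all libraries.

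**Figure D1:**
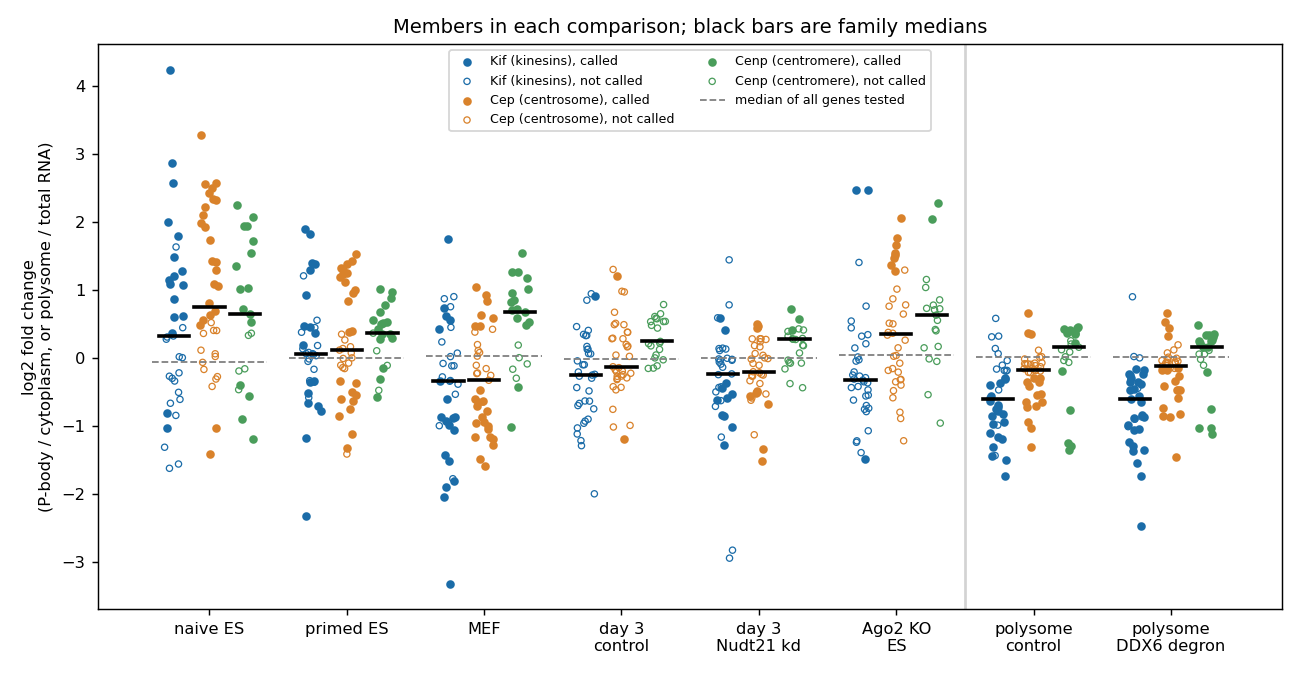
Log2 fold change of every tested member (vertical axis) in the 6 P-body against cytoplasm comparisons and the 2 polysome against total RNA comparisons, split into Kif, Cep and Cenp genes. Filled points passed an adjusted p under 0.05, black bars are family medians and dashed lines the median of all genes tested; all 3 family medians lie above 0 in naive cells, while in MEFs the Kif and Cep medians lie at −0.34 and −0.33 and the Cenp median at 0.68.

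Mitotic kinesins were prominent among the mRNAs enriched in naive P-bodies. Of 13 tested, 10 were enriched and 0 depleted, with a median log2 fold change of 1.08. Kif20b, a kinesin of late mitosis and cytokinesis, had 2119 and 1981 CPM in purified P-bodies, against 72.5 and 143.7 CPM in cytoplasm. Its level was thus 19.0-fold higher in P-bodies (log2 fold change 4.24 ± 0.35 SE, edgeR adjusted p = 0.000838), far outside the spread between the cytoplasm libraries. Kif18a, which dampens chromosome movements at the metaphase plate, was at 411 and 367 CPM against 53.2 and 53.4 CPM (7.29-fold). Kif23, a subunit of the centralspindlin complex of the midzone, was at 557 and 537 CPM against 135 and 138 CPM (4.0-fold). Kif11, the motor that pushes spindle poles apart, differed less, at 280.1 and 251 CPM against 147 and 142 CPM (1.84-fold, edgeR adjusted p = 0.0026). Kif22, a chromosome-arm motor, was 1.30-fold and Kif2c, which depolymerizes microtubules at the kinetochore, 1.54-fold higher. Kif18b, Kif20a and Kif4 had log2 fold changes of −0.34, 0.02 and 0.31 and did not pass the test.

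Transport kinesins were divided. Of 16 tested, 5 were enriched and 2 depleted, and the median was −0.13. Kif5b, the heavy chain of conventional kinesin, was at 662 and 639.7 CPM in P-bodies and 217 and 246 CPM in cytoplasm (2.81-fold), and Kif1b, which carries mitochondria and synaptic vesicle precursors, was 2.31-fold higher. Kif13b, a membrane cargo motor, was the reverse, at 47.9 and 49.0 CPM in P-bodies against 97.5 and 99.9 CPM in cytoplasm (log2 fold change −1.03).

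Among centrosomal genes the enrichment reached both centriole and cilium proteins. Cep57, a pericentriolar protein, was at 255 and 254 CPM in P-bodies and 39.8 and 45.6 CPM in cytoplasm (5.96-fold, edgeR adjusted p = 0.000414). Cep290, of the transition zone of the cilium, was at 48.9 and 44.0 CPM against 8.80 and 9.42 CPM (5.10-fold), and Cep83, of the distal appendages that dock the centriole, at 203 and 217 CPM against 41.6 and 41.8 CPM (5.04-fold). Cep55, which recruits the abscission machinery, was 3.96-fold and Cep135, a cartwheel protein, 2.45-fold higher. Cep112 was called at a lower level, 37.0 and 35.2 CPM against 3.21 and 4.16 CPM (9.76-fold). The scaffold proteins Cep152 (log2 fold change 0.52) and Cep192 (−0.06) did not pass the test. Cep170b was depleted, at 38.8 and 37.9 CPM in P-bodies against 103 and 99.6 CPM in cytoplasm, as was Cep250, the linker of paired centrioles, at 18.8 and 19.4 CPM against 45.6 and 32.3 CPM. In all 6 of these called Cep genes given with levels the P-body and cytoplasm libraries did not overlap. For Cep57, Cep112, Cep170b and Cep250 this was a condition for listing them among the strongest calls.

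At the centromere, Cenpe, the kinesin-like motor of the kinetochore, was at 591 and 581 CPM in P-bodies and 159 and 144 CPM in cytoplasm (3.86-fold, edgeR adjusted p = 0.000414). Cenpf, of the outer kinetochore corona, was 2.56-fold and Cenpc1, the inner scaffold, 3.83-fold higher. Of 15 genes of the constitutive centromere-associated network, the inner kinetochore, 9 were enriched and 2 depleted. Cenpa, the centromeric histone, was not called (133 and 136 CPM against 149.9 and 150.5 CPM, log2 fold change −0.16). Cenpb, which binds centromeric repeats, was depleted at 8.46 and 9.08 CPM against 21.3 and 18.5 CPM. The large motor and corona proteins were therefore on one side of the cytoplasm level and the histone and the repeat-binding protein on the other, although Cenpa did not pass the test.

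**Figure D2:**
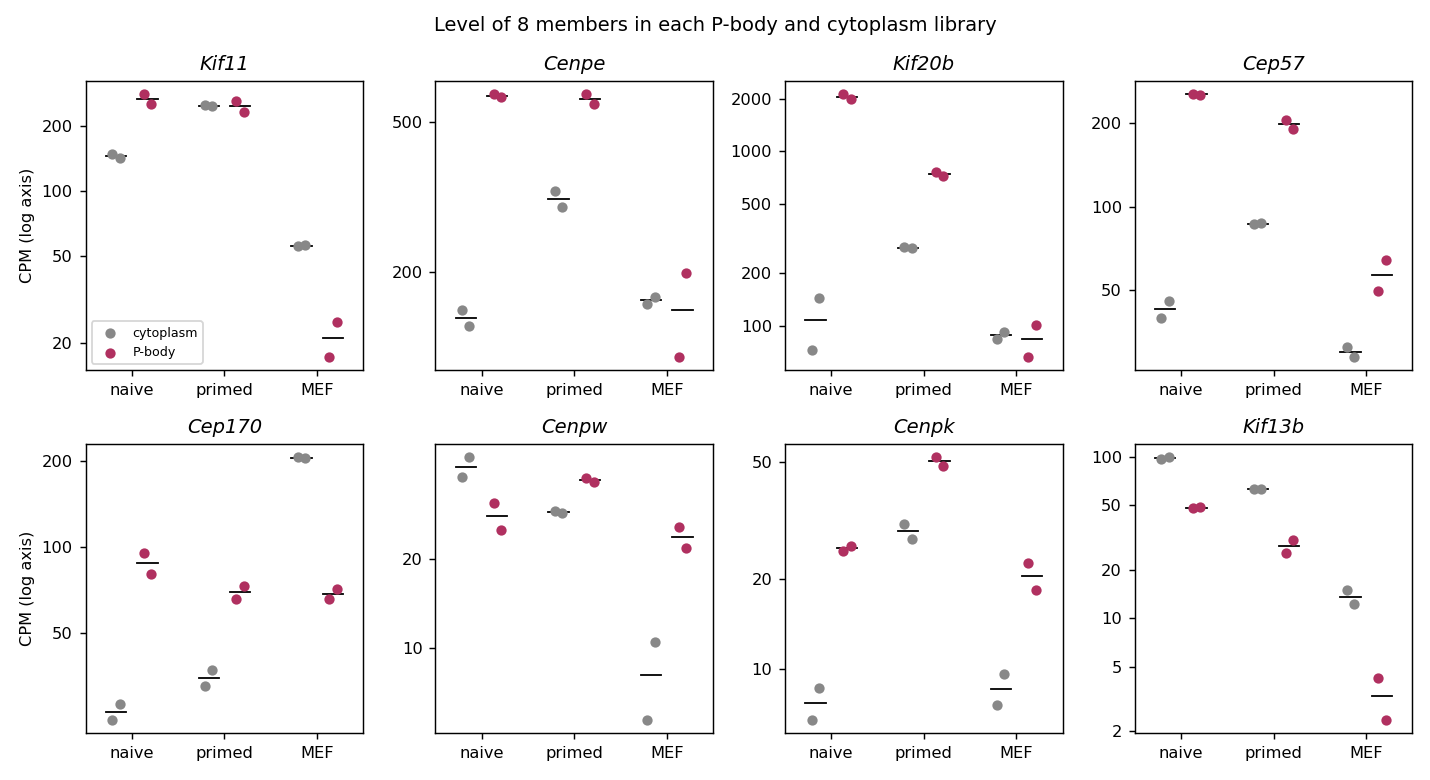
Level in CPM (log axis, a scale of its own in each panel) of 8 members in each P-body (red) and cytoplasm (grey) library of naive ES cells, primed ES cells and MEFs; black lines are means of 2 libraries. Kif20b reaches 2119 and 1981 CPM in naive P-bodies, Kif11 and Cep170 are higher in P-bodies of naive cells and lower in P-bodies of MEFs, and Kif13b is lower in P-bodies in all 3 cell types.

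In primed ES cells, which model a later epiblast state, 38 of 93 members were enriched and 21 depleted, against 50.7% of all genes called, 26.5% as enriched. The median was 0.17 against 0.00 over all genes. Mitotic kinesins again had calls in 1 direction, with 6 of 13 enriched and 0 depleted, but at a median of 0.14. Kif20b had 760.5 and 721 CPM in P-bodies against 283 and 278 CPM in cytoplasm (2.64-fold), and Kif18a at 254 and 236 CPM against 94.9 and 92.5 CPM (2.62-fold). Kif11 did not differ between the fractions beyond the spread, at 260.1 and 232 CPM in P-bodies and 249 and 247 CPM in cytoplasm. The strongest primed enrichments among members with at least 10 CPM were of Kif21a, a motor that restrains microtubule growth (log2 fold change 1.89), Cep57l1 (1.53), Cep162 (1.44), of the ciliary base, and Kif20b (1.40). Kif26a (−2.32), Cep250 (−1.33), Kif13b (−1.18) and Cep350 (−1.12) had the strongest depletions. The inner kinetochore genes were enriched in 12 of 15 cases and depleted in 1.

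Naive and primed calls shared 33 enriched members, which are 67.3% of the 49 naive and 86.8% of the 38 primed calls; over all genes tested in both the shares were 68.2% and 58.1%. The enrichment itself was larger in naive cells for 35 of 93 members and smaller for 3 by an interaction contrast over the 4 groups, where 25.3% of all genes were called, 13.9% with a larger and 11.4% with a smaller enrichment in naive cells. Kif20b differed by 2.70 ± 0.34 SE on the log2 scale, and Cep112, a centrosomal coiled-coil protein, by 1.85 ± 0.24. For Kif11 the difference was 0.75 ± 0.12. Cenpw went the other way: it was at 30.9 and 25.01 CPM in naive P-bodies against 37.7 and 44.2 CPM in naive cytoplasm, but at 37.7 and 36.3 CPM in primed P-bodies against 29.1 and 28.5 CPM in primed cytoplasm. Without either naive P-body library (replicate 1 or replicate 2) the calls fell from 38 to 22, of which 21 were larger in naive cells.

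In MEFs the families went different ways. Of 94 members, 26 were enriched in P-bodies of MEFs and 33 were depleted, beside 55.3% of all genes called (26.6% enriched, 28.7% depleted), and the median was −0.16 against 0.03 over all genes. Once a trend with GC content and length was taken out, as described further down, the members' median was −0.02 against −0.06 over all genes, so it no longer lay below theirs. Of 36 kinesins 5 were enriched and 14 depleted, and of 37 Cep genes 7 were enriched and 17 depleted. Of 21 Cenp genes, in contrast, 14 were enriched and 2 depleted, with a median of 0.68, and in the inner kinetochore network 12 of 15 were enriched and 0 depleted. Without cytoplasm replicate 1 the member calls fell from 59 to 36 (12 enriched, 24 depleted).

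Cenpw, a small histone-fold protein of the inner kinetochore, was at 25.6 and 21.7 CPM in MEF P-bodies and 5.70 and 10.4 CPM in cytoplasm (2.93-fold, edgeR adjusted p = 0.00058). Cenpk was at 22.7 and 18.4 CPM against 7.52 and 9.54 CPM (2.41-fold), and Cenpp at 15.1 and 14.6 CPM against 5.51 and 6.82 CPM (2.41-fold). Cenpa, at 91.1 and 90.5 CPM against 50.3 and 49.5 CPM, was 1.82-fold higher. The P-body and cytoplasm libraries did not overlap for any of these 4 genes. For Cenpw, Cenpk and Cenpp, but not Cenpa, this was a condition for listing them among the strongest calls. Cenpe, which was enriched in both ES states, gave 119 and 199 CPM in MEF P-bodies on either side of 165 and 173 CPM in cytoplasm, and was not called; its log2 fold change of −0.08 went to 0.24 without P-body replicate 1 and to −0.49 without P-body replicate 2.

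Depletion from MEF P-bodies reached genes of spindle assembly and of the centriole. Kif11 was at 17.1 and 24.8 CPM in P-bodies and 55.6 and 56.5 CPM in cytoplasm (log2 fold change −1.42 ± 0.16 SE, edgeR adjusted p = 7.21e-05). Kif4, a chromokinesin, was at 16.9 and 14.5 CPM against 44.3 and 45.5 CPM. The other mitotic kinesins were divided. Kif14 (−0.87), Kif18b (−0.88), Kif20a (−0.87) and Kif2c (−0.34) were also depleted, whereas Kif18a (0.62) and Kif2a (0.74) were enriched. Kif15, Kif20b, Kif22, Kif23 and Kif24 were not called. Cep170, of the subdistal appendages, was at 66.0 and 71.0 CPM against 207 and 205 CPM (log2 fold change −1.59), and Cep192 at 16.7 and 20.4 CPM against 42.1 and 42.5 CPM. In the centriole and spindle pole group 10 of 14 genes were depleted, and Cep57 (0.93) was the only one enriched. Outside the mitotic kinesins, Kif26b (−3.32) and Kif16b (−1.81) were depleted. Kif1c, a motor of vesicle and mRNA transport, was instead at 24.9 and 30.6 CPM in P-bodies and 6.90 and 9.61 CPM in cytoplasm (3.36-fold).

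Set side by side, 14 members were enriched in naive and depleted in MEF P-bodies, namely Cep170, Cep97, Cep162, Cenpj, Kif11, Cep76, Kif14, Kif1b, Cep135, Kif3b, Cep120, Cep68, Cep350 and Kif2c. The reverse pattern was shown by 3 members, Cenpw, Cenpv and Cenpm. Of the 92 members tested in both these are 15.2% and 3.26%, and over all 13982 genes tested in both the shares were 8.54% and 4.41%. These comparisons share no library. For all 17 the enrichment also differed by the interaction contrast, in which 50 of 94 members had a larger enrichment in naive cells and 13 a smaller one; over all genes 41.3% were called, 21.5% with a larger and 19.8% with a smaller enrichment in naive cells. Cep170 was at 95.5 and 80.4 CPM in naive P-bodies against 24.8 and 28.0 CPM in naive cytoplasm, the reverse of its order in MEFs, and differed by 3.13 ± 0.17 SE (edgeR adjusted p = 6.6e-06). Kif11 differed by 2.104 ± 0.22. Cep97, a suppressor of cilium growth at the centriole cap, differed by 2.87 ± 0.28, and Cenpj by 2.38 ± 0.27. Cenpv, a microtubule-bundling protein of the midzone, was at 52.6 and 51.6 CPM in naive P-bodies against 91.1 and 102 CPM in cytoplasm, and at 6.96 and 6.95 CPM in MEF P-bodies against 3.24 and 3.66 CPM in cytoplasm, a difference of −2.09 ± 0.19.

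**Figure D3:**
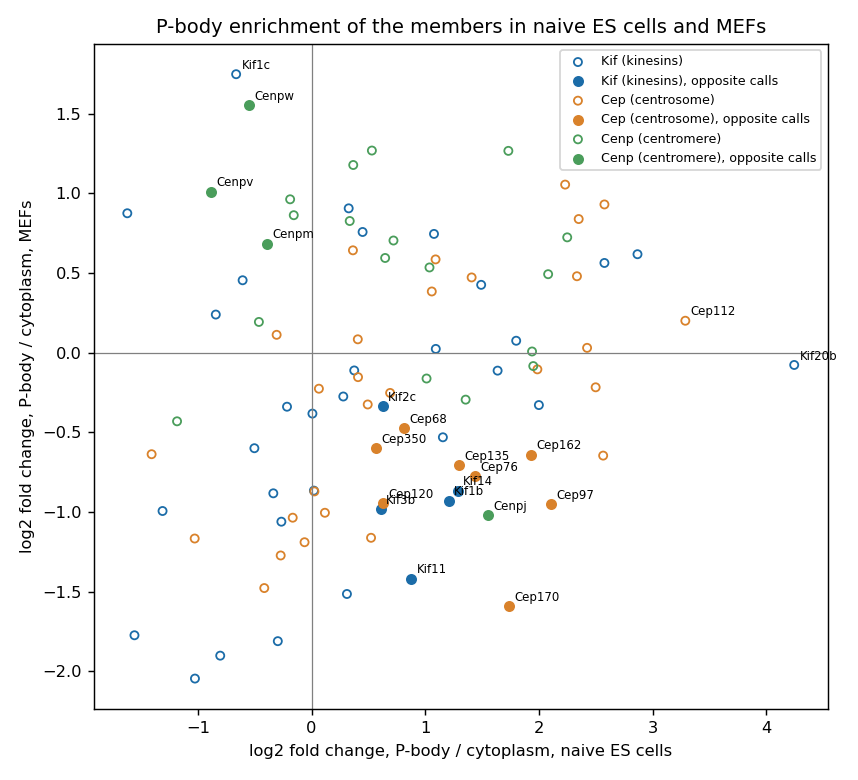
Log2 fold change of P-body over cytoplasm for each member in naive ES cells (horizontal axis) and in MEFs (vertical axis), coloured by family. Filled points are the 14 members enriched in naive and depleted in MEF P-bodies (lower right) and the 3 with the reverse pattern (upper left), which are all Cenp genes.

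At day 3 of reprogramming few members were called. In control cells 2 of 94 were enriched and 1 depleted, where 0.646% of all genes were called, 0.196% as enriched. An unadjusted p under 0.05 was seen for 27 of the 94 members and for 3899 of all 15786 genes. Cep290 was at 45.9 and 44.6 CPM in P-bodies and 19.4 and 19.9 CPM in cytoplasm (2.30-fold), Kif20b at 171 and 157 CPM against 91.1 and 82.6 CPM (1.89-fold), and Cep170b at 97.2 and 87.8 CPM against 200.4 and 223 CPM (log2 fold change −1.19), each with an edgeR adjusted p of 0.0495. This count was not stable: it rose without either P-body replicate and fell without either cytoplasm replicate, each of which leaves 1 library in that fraction. It also moved under settings that leave no library out, given further down. The P-body replicates differed in ribosomal RNA genes (7336 and 13759 CPM), whose part in the count was not tested. Enrichment differed between day 3 control cells and MEFs for 17 of 94 members, 15 of them larger and 2 smaller at day 3, where 14.7% of all genes were called (9.59% larger, 5.13% smaller). Cep170, at 47.5 and 48.4 CPM in day 3 P-bodies and 53.8 and 50.9 CPM in cytoplasm, was less depleted than in MEFs (difference 1.51 ± 0.15 SE), and Cep135 also had a larger enrichment at day 3 (1.43 ± 0.28). Kif1c had a smaller enrichment at day 3 than in MEFs (−1.24 ± 0.30). Without cytoplasm replicates that count of 17 fell to 3 or 5 (MEF replicate 1 or 2) and to 2 or 1 (day 3 replicate 1 or 2), and it was 32 or 35 without day 3 P-body replicate 1 or 2.

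With the Nudt21 knockdown, 8 of 94 members were enriched and 16 depleted (21.9% of all genes called, 9.04% as enriched). Nudt21 encodes a cleavage factor that favours distal polyadenylation sites. Cenpk was at 38.2 and 26.9 CPM in P-bodies and 19.5 and 19.8 CPM in cytoplasm (1.65-fold), and Kif13a, an endosomal motor, at 50.3 and 52.5 CPM against 124 and 125 CPM (log2 fold change −1.28). Of 21 Cenp genes 3 were enriched and 0 depleted, while of 36 kinesins 2 were enriched and 9 depleted. Cep170b (−1.51) and Cep250 (−1.33) were depleted here as well. The count of 24 calls was 38 without P-body replicate 2 and 8 without cytoplasm replicate 1 or replicate 2. The change in enrichment between knockdown and control was called for 0 of 95 members by edgeR and for 2 by DESeq2. Over all genes edgeR called 2 of 16973 (0.0118%). An unadjusted p under 0.05 was seen for 819 of these genes and for 10 members, all 10 toward less enrichment in the knockdown. Without day 3 control P-body replicate 1 edgeR called 18 members.

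In Ago2 KO ES cells, which lack the main Argonaute protein of miRNA silencing, 12 of 91 members were enriched and 1 depleted, beside 6.51% of all genes called (5.47% enriched, 1.05% depleted). The KO libraries were counted with another annotation and method than the naive libraries, so levels are not compared between them. Kif20b was at 375 and 390.3 CPM in P-bodies and 58.8 and 78.8 CPM in cytoplasm (5.56-fold, edgeR adjusted p = 0.00267). Kif18a was at 236 and 236 CPM against 45.7 and 39.4 CPM (5.54-fold), Cenpq at 76.3 and 65.4 CPM against 16.4 and 12.8 CPM (4.85-fold), and Cep83 at 246 and 273 CPM against 57.1 and 67.3 CPM (4.17-fold). All 12 enriched members were among the 49 enriched in naive cells, which is 24.5% of those 49. Over all genes tested in both, 91.8% of those enriched in Ago2 KO cells were enriched in naive cells, and these were 21.9% of the naive calls, so the members' shares lay near those of all genes. Kif13b was the depleted member, at 5.33 and 5.64 CPM against 10.4 and 20.4 CPM. Kif11 (45.2 and 53.8 CPM against 51.3 and 69.5 CPM) and Cenpe (155 and 165 CPM against 111 and 131 CPM) were not called. The count of 13 was 46 without cytoplasm replicate 1, 22 without cytoplasm replicate 2, 6 without P-body replicate 1 and 8 without P-body replicate 2; the cytoplasm replicates were the libraries with most ribosomal RNA reads. With the replicate number as a block it was 36 (25 enriched, 11 depleted).

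Of the 88 members tested in all 6 P-body comparisons, 58 (65.9%) were enriched in at least 1, 9 (10.2%) were called in none, and 21 (23.9%) were enriched in at least 1 and depleted in at least 1 other. Over all 12093 such genes the shares were 54.5%, 12.4% and 22%, so the last 2 lay near the background. Kif20b, Kif18a, Cep57, Cep83, Cenpk and Cep290 were enriched in 5 of the 6, and Kif13b and Cep170b depleted in 5 and Cep250 in 4. Kif20b missed the call in MEFs (66.2 and 101 CPM in P-bodies against 84.2 and 92.0 CPM in cytoplasm), where the fractions overlapped. Enriched in naive, primed and MEF P-bodies alike were 17 of 92 members (18.5%), and depleted in all 3 were 4 (4.35%), beside 5.32% and 4.5% of all genes.

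Base composition was a property that the choice of members did not use. The median GC content of the longest transcript was 47.3% for the 92 members tested in naive cells and 50.2% for all genes. Of the 46 members under 47.3% GC, 39 were enriched in naive P-bodies and 1 depleted, with a median log2 fold change of 1.46; of the 46 at or above it 10 were enriched and 7 depleted, with a median of −0.16. All genes under the same limit had a median of 0.74, with 2611 of 5257 enriched and 171 depleted. Those at or above it had −0.32, with 853 of 10016 enriched and 2208 depleted. The members thus followed the direction of the whole transcriptome. Across the 92 members Spearman's rho between GC content and fold change was −0.74 in naive cells, beside −0.60 over all genes. It was −0.57 in primed cells, −0.76 in Ago2 KO cells and −0.30 in MEFs, beside −0.38, −0.48 and −0.08 over all genes. The members' values cover 91 to 94 genes, which share libraries and are not independent. After a smooth trend with GC content and length over all genes was taken out, the members' median was 0.30 in naive cells and −0.01 in primed cells, against −0.02 over all genes in both. It went from −0.16 to −0.02 in MEFs and from 0.15 to 0.00 in Ago2 KO cells, against −0.06 and −0.04 over all genes. In MEFs length had the larger rho, −0.53 against −0.02 in naive cells. Over all genes these were −0.45 and 0.21. Members of at least 4780 bases had a median log2 fold change of −0.60 in MEFs, with 7 of 47 enriched and 24 depleted. Shorter members had 0.24, with 19 enriched and 9 depleted. All genes of at least 4780 bases had a median of −0.53, with 419 of 3718 enriched and 1880 depleted. Shorter genes had 0.19, with 3742 of 12066 enriched and 2720 depleted. With length, too, the members thus followed the direction of the whole transcriptome.

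**Figure D4:**
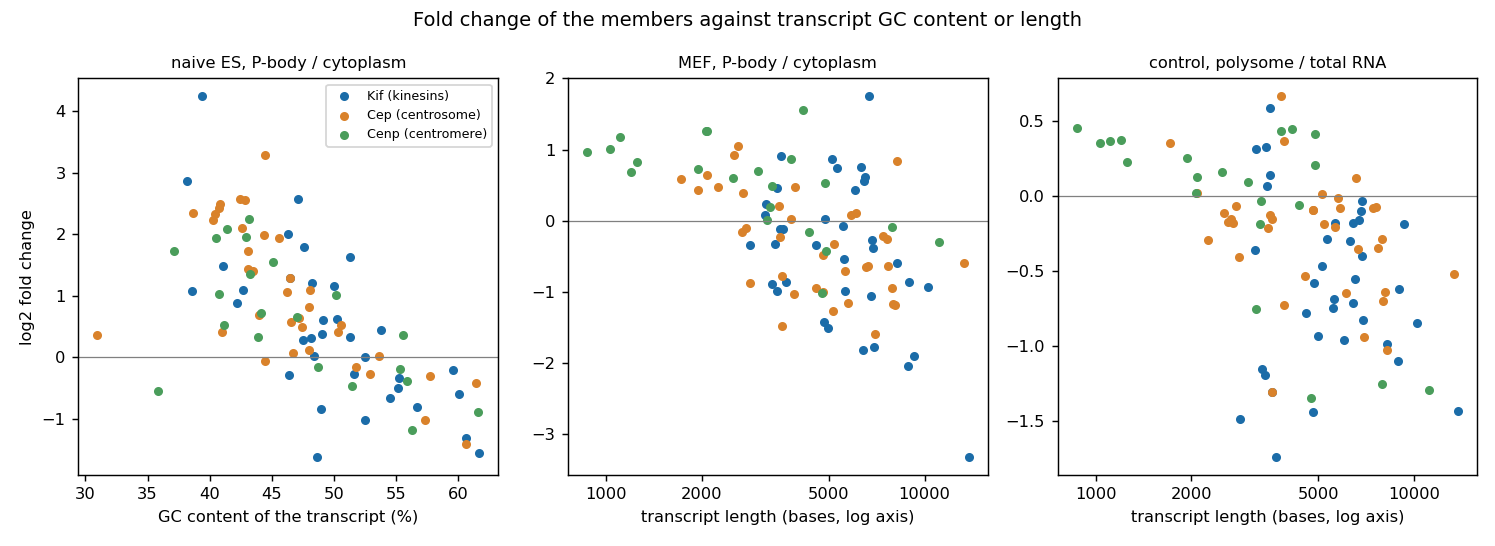
Log2 fold change of each member against the GC content of its longest transcript in naive ES cells (left), and against transcript length in MEFs (middle) and in control polysomes (right); colours are families. Members of low GC content lie mostly above 0 in naive cells, and long members lie lower than short ones in MEFs and on polysomes.

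Ribosome occupancy was measured as polysome-bound over total RNA. In control ES cells 11 of 93 members were higher on polysomes and 41 lower, against 42.9% of all genes called (18.8% higher, 24.1% lower), with a median log2 fold change of −0.19 against 0.02. No kinesin of 36 was higher and 22 were lower. All 13 mitotic kinesins tested were lower, with a median of −0.94. Kif20a, a midzone motor of cytokinesis, was at 91.2, 85.8 and 98.3 CPM on polysomes and 310, 324 and 284 CPM in total RNA (log2 fold change −1.74 ± 0.07 SE, edgeR adjusted p = 9.49e-12). Kif2c was at 44.8, 41.5 and 49.8 CPM against 126, 126 and 128 CPM (−1.49), and Kif11 at 59.6, 59.8 and 65.1 CPM against 178, 176 and 145 CPM (−1.44). For each of these 3 kinesins every polysome library was below every total RNA library, as listing among the strongest calls required. Exons of Kif20a share 29.3% of their bases with Cdc23, so part of its reads could belong to that gene.

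Centromere genes went both ways on polysomes, also within a role. Cenpe was at 57.0, 55.7 and 62.5 CPM against 153, 152 and 111 CPM (log2 fold change −1.26), Cenpf had −1.29 and Cenpj −1.35. Cenpa was higher, at 224, 236 and 227 CPM against 162, 160 and 186 CPM (0.44 ± 0.07 SE, edgeR adjusted p = 6.99e-05). Cenpw, at 47.6, 55.5 and 49.2 CPM against 35.7, 35.5 and 40.8 CPM, Cenpx (0.45), Cenpl (0.42) and Cenpv (0.35) were also higher. In the inner kinetochore network 6 of 15 genes were higher and 2 lower, Cenpc1 (−0.76) and Cenpt (−0.19). Roles were not tested against each other. Among Cep genes Cep131, a protein of centriolar satellites, was lower, at 8.56, 7.84 and 9.87 CPM against 23.0, 21.7 and 19.8 CPM (−1.31), and Cep290 had −1.03; Cep83 (0.37) was higher and Cep57 (−0.11) and Cep55 (−0.07) were not called. Across members, rho of occupancy with transcript length was −0.46, beside −0.36 over all genes.

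**Figure D5:**
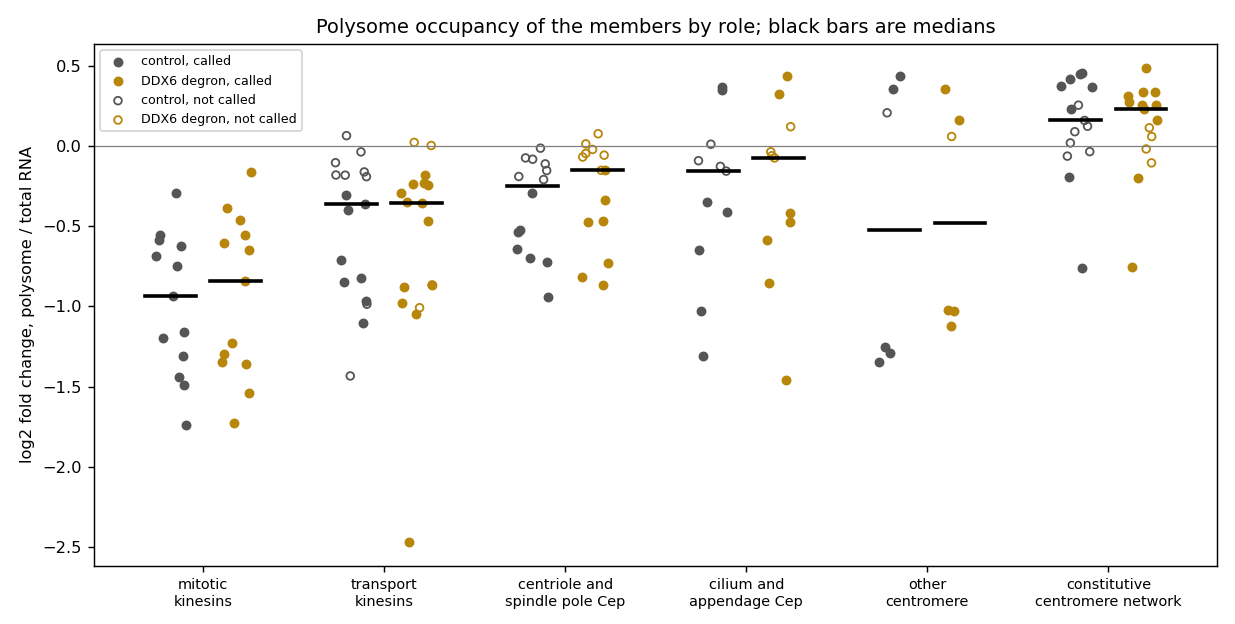
Log2 fold change of polysome-bound over total RNA (vertical axis) for members grouped by role, in control (grey) and DDX6 degron (yellow) ES cells; filled points passed an adjusted p under 0.05 and black bars are medians. All 13 mitotic kinesins lie below 0 in both, and the medians of the constitutive centromere network lie above 0.

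After DDX6 was degraded the same order was seen: 15 of 92 members were higher on polysomes and 47 lower (50.9% of all genes called, 24% higher and 26.8% lower). Of these, 11 were higher and 39 lower in both conditions, which is all 11 of the control's higher calls. Of the 92 members tested in both these are 11.96% and 42.4%, beside 16.5% and 22.9% of all genes. Kif20a (−1.73), Kif2c (−1.54) and Kif11 (−1.36) remained lower, and Cenpw (0.49) and Cenpa (0.36) higher. The difference in occupancy between degron and control was called by edgeR for 0 of 93 members and 0 of 16345 genes, while 3 members and 844 genes had an unadjusted p under 0.05; DESeq2 also called 0 members. Without control total RNA replicate 3 edgeR called 1 member. In total RNA itself 2 of 93 members were called (3.31% of all genes, 1.24% higher and 2.07% lower), both higher after degradation: Kif3c, a subunit of kinesin-2 whose exons share 40.7% of their bases with another gene, at 15.6, 16.3 and 15.6 CPM against 11.03, 13.2 and 11.6 CPM (log2 fold change 0.41), and Kif26a (0.70). Neither was called when any one of the DDX6 degron libraries (replicate 1, 2 or 3) or control replicate 1 or 2 was left out, and 21 members were called without control replicate 3.

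P-body enrichment and ribosome occupancy were then set beside each other; the naive P-body and the control polysome libraries are different samples. Of the 49 members enriched in naive P-bodies, 25 were lower and 4 higher on control polysomes (51.0% and 8.16%), with a median occupancy of −0.29 on the log2 scale. Of the 35 members not called in naive cells, 13 were lower and 4 higher, with a median of −0.16, and of the 8 depleted there 3 were lower and 3 higher. Over all 3463 genes enriched in naive P-bodies and tested on polysomes, 30.1% were lower and 23.5% higher, with a median of 0.02. The shares were 21.1% and 18.1% over all genes not called in naive cells and 33.6% and 19.4% over all those depleted. Gene by gene, rho between naive enrichment and control occupancy was −0.06 over 92 members and 0.03 over all genes. For other enrichments it was 0.15 (primed), 0.49 (MEF), 0.25 (day 3), 0.48 (Nudt21 knockdown) and 0.29 (Ago2 KO) over 90 to 93 members. Over all genes it was 0.17, 0.42, 0.32, 0.34 and 0.35 in the same order. The genes share libraries and are not independent. Occupancy came from the control polysome ES cells in every case. Ribosome occupancy in MEFs, day 3, Nudt21 knockdown, primed and Ago2 KO cells was not measured. These values therefore do not show how mRNAs enriched in P-bodies of those cells are bound by ribosomes there. Kif18a and Kif20b were enriched in naive P-bodies and lower on polysomes, whereas Cep83 was enriched in P-bodies and higher on polysomes.

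Other genes of the same machinery were taken from a list of 77 genes. These were kinetochore, mitotic kinase and spindle, centrosome, C-terminal kinesin (Kifc), kinesin partner, dynein and dynactin genes. In naive P-bodies 32 of the 77 were enriched and 8 depleted, in primed P-bodies 32 and 22, and in MEF P-bodies 13 and 37. Beside these stand 22.6% and 15.4% of all genes in naive, 26.5% and 24.2% in primed and 26.6% and 28.7% in MEF P-bodies; the 22 depleted in primed cells, 28.6% of the list, lay near that background. The kinetochore genes of this list had 15 of 24 enriched and 1 depleted in naive cells and 9 enriched and 8 depleted in MEFs. On control polysomes 9 of the 77 were higher and 44 lower, and after DDX6 degradation 12 were higher and 48 lower, beside 18.8% and 24.1% of all genes in control and 24% and 26.8% in degron cells. Kifc kinesins with kinesin partners numbered 9 on the list, and dynein with dynactin genes also 9. In naive P-bodies 1 of the Kifc and partner genes was enriched and 1 depleted. Of the dynein and dynactin genes 3 were enriched and 2 depleted.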

How the data were processed

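P-bodies were sorted from mouse cells and compared with cytoplasm, and ribosome-bound RNA with total RNA of the same lysates. The authors aligned Smart-seq reads of P-bodies and cytoplasm to mm10 with HISAT2 and deposited estimated counts per refGene gene from featureCounts (17.6% to 25.7% of values per library not whole). For the polysome libraries the authors deposited expected counts from salmon through nf-core on refGene (5.05% to 6.19% not whole), and the Ago2 KO table holds salmon counts with Ensembl genes (11.6% to 13.1%). Tables of the authors' own comparisons (fold changes and adjusted p-values) were not used.

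Counts were rounded. Each comparison was fitted on the whole table with edgeR (4.0.16, R 4.3.3; quasi-likelihood test, two-sided, TMM scaling) for genes whose reads in the fitted libraries summed to 10 or more, and called at a Benjamini-Hochberg adjusted p under 0.05. CPM values carry TMM scaling within a comparison. Differences between cell types are interaction contrasts over 4 groups. The alternatives were DESeq2 (1.42.0), other size factors, other filters, a replicate block and a fit of all groups. Further alternatives left out each library or took out a GC and length trend (mgcv 1.9.3). The edgeR step was tested on simulated data, and the DESeq2 step was not. Named genes were 20 fixed genes and members with opposite or repeated calls. Named as well were the 3 largest called differences in each direction with at least 5 reads in every library. The 4 strongest called members each way per comparison were also named, given at least 10 CPM and groups that did not overlap. Members whose calls or levels complete a role group were named after their values were seen. The members and lists were chosen with earlier results of these data known. Coding stretches and gene features came from GENCODE M21.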

Additional observations from a re-analysis of the deposited data

Results flagged for a closer look

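The results listed here are differences in P-body enrichment between cell types that passed the edgeR interaction test, given as differences of log2 fold changes. Between naive and primed ES cells 38 of 93 members differed (40.9%), beside 25.3% of all genes. Among them Kif20b (2.70), Cep85l (2.51), Cep112 (1.85) and Kif11 (0.75) had the larger enrichment in naive cells, and Cenpw (−1.06), Cep128 (−0.86) and Cenpv (−0.46) the larger one in primed cells. Cep85l passed with an SE of 0.66, the widest of these 7.

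Between naive ES cells and MEFs 63 of 94 members differed (67.0%), beside 41.3% of all genes. Kif20b (4.13), Cep170 (3.13), Cep112 (2.90), Cep97 (2.87), Cep162 (2.39), Cenpj (2.38), Kif11 (2.104) and Cep76 (2.02) were more enriched in naive P-bodies. Kif1c (−2.60), Cenpw (−2.30), Cenpv (−2.09) and Cenpm (−1.26) were more enriched in MEF P-bodies.

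Between day 3 control cells and MEFs 17 of 94 members differed (18.1%), a share near the 14.7% of all genes. Kif26b (2.11), Cep170 (1.51) and Cep135 (1.43) had a larger P-body over cytoplasm ratio at day 3, and Kif1c (−1.24) and Cenpv (−0.97) a smaller one. Kif26b was low at day 3, at 3.19 and 0.79 CPM in P-bodies and 4.72 and 5.17 CPM in cytoplasm. Its log2 fold change at day 3, −1.29, did not pass the test. Cep135, depleted in MEFs (−0.71), had a log2 fold change of 0.68 at day 3, which did not pass the test. The naive minus primed and naive minus MEF contrasts share the naive libraries, and the day 3 and naive contrasts share the MEF libraries.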

How the results depend on the processing

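Under the alternatives that leave no library out, 67 of 82 counts of called members stayed within 1.5 times. In primed cells a fit of all groups gave 39 in place of 59. For day 3 control cells (3 calls) DESeq2 gave 14, no filter 13, the fit of all groups 28 and the replicate block 9. For the Nudt21 knockdown (24) no filter gave 37 and the fit of all groups 13. In Ago2 KO cells (13) no filter gave 22 and the replicate block 36. The day 3 minus MEF difference (17) gave 27 with no filter and 27 in the fit of all groups, the knockdown minus control difference (0) gave 2 with DESeq2 and 1 with no filter, and total RNA after DDX6 degradation (2) gave 4 in the fit of all groups and 0 with the replicate block.

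Leaving out 1 library gave 31 to 76 called members in naive cells, 51 to 58 in primed cells, 36 to 65 in MEFs, 1 to 57 at day 3, 8 to 38 with the Nudt21 knockdown and 6 to 46 in Ago2 KO cells. It gave 48 to 65 on control and 56 to 61 on degron polysomes. For the differences it gave 22 to 53 (naive minus primed), 52 to 68 (naive minus MEF), 1 to 35 (day 3 minus MEF), 0 to 18 (knockdown minus control) and 0 to 1 (occupancy), and for total RNA 0 to 21. The arm left with 1 library was assumed to vary like the others. The cause was not tested.

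After the GC and length trend the members' median turned to −0.00623 in primed cells and to 0.00258 with the Nudt21 knockdown. Leaving out 1 library, their median ran from −0.0750 (without day 3 P-body replicate 1) to 0.0524 at day 3, from −0.0148 (without the same library) to 0.249 for day 3 minus MEF, and from −0.0322 (without cytoplasm replicate 1) to 0.171 in Ago2 KO cells. Among named genes Cenpe in MEFs ran from −0.489 to 0.242, above 0 without P-body replicate 1.

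P-bodies were sorted from the cytoplasmic fraction that was also sequenced, but neither labels nor methods say that same-numbered libraries came from 1 preparation, so the block was kept as an alternative. Same-numbered deviations correlated at −0.06, 0.09, −0.01, 0.17, 0.20 and 0.60 in the 6 P-body comparisons in the order of the text and at −0.00 to 0.20 on polysomes. The replicate block changed no other count by over 1.5 times. With 2 libraries a group, depth and number limit which small differences could be called.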
